A study of Mus musculus with 8 samples.

Results

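D2 striatal projection neurons, the neurons of the indirect pathway, were examined in single nuclei from mouse brain. The nuclei were selected on raw counts of unique molecular identifiers (UMIs, each marking 1 captured RNA molecule). A nucleus was chosen by having at most 1 UMI of *Slc17a7*, at least 5 of *Pde10a*, at least 1 of *Rgs9*, at least 1 of *Drd2* and *Adora2a* together, and none of *Drd1*. Of 54341 nuclei that passed the quality filters in 8 libraries, 316 met this rule, and they held 2370144 UMIs. The series asked what loss of IFNAR1, a subunit of the type-I interferon receptor, changes in brain cells before any challenge. It compared 4 wild-type (Wt, *Ifnar1*+/+) with 4 *Ifnar1*-/- mice, each with 2 females (F1, F2) and 2 males (M1, M2). All mice were naive, 6 weeks old and of strain C57BL6J, and the deletion was in the germline, so every cell of an *Ifnar1*-/- mouse carried it. Each library came from the dissected cortex of 1 mouse, which is the replicate here. The tissue label is cortex, although *Pde10a*, *Rgs9*, *Drd2* and *Adora2a* together mark the striatum that lies beneath it.

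Projection neurons make up most of the striatum and release GABA. Those of the indirect pathway carry the D2 dopamine receptor (*Drd2*), which lowers cyclic AMP, and an adenosine receptor (*Adora2a*), which raises it, and they make enkephalin from *Penk*. Those of the direct pathway carry the D1 dopamine receptor (*Drd1*), which raises cyclic AMP, and make substance P from *Tac1* and dynorphin from *Pdyn*. Both kinds express *Pde10a*, a phosphodiesterase that breaks down cyclic nucleotides, and *Rgs9*, which shortens signalling by G proteins. D1 nuclei, chosen by the same limits on *Slc17a7*, *Pde10a* and *Rgs9* with at least 1 *Drd1* UMI and none of *Drd2* or *Adora2a*, numbered 550 and served as the closest comparison.

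Total UMIs per library ranged from 44063346 to 58423423, and UMIs over the D2 nuclei of a library from 152253 to 481932. A D2 nucleus had a median of 6563.5 UMIs and 2789.5 genes, and a D1 nucleus a median of 6795.5 UMIs. Scrublet called 14 of the 316 D2 nuclei as doublets. Across the kept nuclei 352 barcodes occurred in 2 or more libraries. Of the D2 nuclei 5 carried such a barcode, and 0 barcodes were shared among D2 nuclei. Levels are given as CPM, the UMIs of a gene divided by all UMIs of the nuclei named and scaled to the same total in every library, which are not corrected for gene length and are therefore not compared between genes.

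The D2 nuclei were not of 1 kind. In 55 of the 316 (17.4%) the UMIs of 8 genes of striatal projection neurons (among them *Ppp1r1b*, *Foxp1*, *Meis2* and *Pde1b*) came to fewer than 10 per 10000 UMIs, with a median of 3.1 against 50.3 in the other 261. Only 11 nuclei lay between 8 and 12 per 10000, close to that limit. The limit was set after these values were seen. Low values of the 8 genes in these nuclei restate the split. Nuclei said below to lack or be without striatal genes are those under this limit, and the genes were not all absent from them. Of the 55, *Foxp1* was found in 40, *Bcl11b* in 27 and *Ppp1r1b* in 0. Of genes outside the sum and the gate, *Rarb*, a retinoic acid receptor of these neurons, stood at 23.0 CPM in the 55 nuclei against 1154 CPM in the other 261, and *Penk* at 37.8 against 733 CPM.

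Of 10 interneuron genes 6 were higher in the 55 nuclei than in the 261 and 4 lower. *Sst* (somatostatin) stood at 4064 CPM in the 55 nuclei and 87.4 in the 261. *Npy* (neuropeptide Y) stood at 559 against 27.8 CPM, and *Lhx6*, a transcription factor of interneurons from the medial ganglionic eminence, at 57.6 against 2.84 CPM. *Chat*, the acetylcholine-synthesizing enzyme, was found in 3 of the 55 and in 7 of the 261. *Adarb2*, of interneurons from the caudal ganglionic eminence, stood at 365 against 78.9 CPM, and *Slc5a7*, the choline transporter, at 57.6 against 0 CPM. *Pvalb* stood at 3.29 against 4.54 CPM, *Vip* at 4.94 against 7.38, *Lamp5* at 14.8 against 32.9 and *Th* at 0 against 2.27 CPM. The 55 nuclei were also richer in UMIs, with a median of 10174 against 5909. For these nuclei *Rarb*, *Penk*, *Sst* and *Npy* went against the name of striatal projection neurons. Results with all gated nuclei therefore come first, and values from the 261 nuclei that had striatal genes, a setting added after the data were seen, follow where calls or directions changed. The 55 nuclei under the limit numbered 13, 6, 7 and 7 in Wt F1, F2, M1 and M2 and 0, 11, 5 and 6 in *Ifnar1*-/- F1, F2, M1 and M2. The share of such nuclei was 25.6% ± 12.4 in Wt and 20.6% ± 14.3 in *Ifnar1*-/- (SD, n = 4, exact permutation test, two-sided, p = 0.543). Among D1 nuclei 61 of 550 (11.1%) fell below the same limit.

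**Figure D1:**
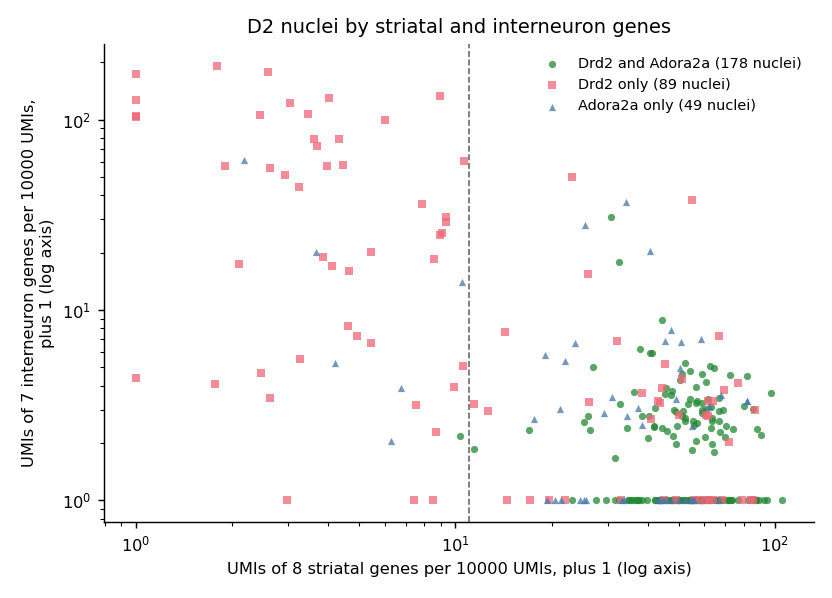
Each point is 1 of the 316 D2 nuclei, placed by its UMIs of 8 striatal genes per 10000 (x axis, plus 1, log scale) and of 7 interneuron genes per 10000 (y axis, plus 1, log scale), and the dashed line marks 10 per 10000. The 55 nuclei left of the line are mostly nuclei with *Drd2* and no *Adora2a* UMI (48 of the 55), and many of them are high in interneuron genes.

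The receptor that placed a nucleus in the gate divided it further. Nuclei with UMIs of both *Drd2* and *Adora2a* numbered 178, and 1 of them lacked striatal genes by the limit above. *Penk*, which the gate did not use, stood at 773 CPM in these 178 nuclei and was detected in 89.3% of them. Of the 89 nuclei with *Drd2* and no *Adora2a* UMI, 48 lacked striatal genes, and *Penk* stood at 192 CPM and *Sst* at 3016 CPM. In the 49 nuclei with *Adora2a* and no *Drd2* UMI *Penk* stood at 626 CPM, and 6 lacked striatal genes.

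Nuclei just inside and just outside each limit of the gate are given as a description. With 5 *Pde10a* UMIs, 20 nuclei had 466 CPM of *Penk*, and 14 nuclei with 4 that otherwise met the rule had 182 CPM. With 1 *Rgs9* UMI, 90 nuclei had 267 CPM of *Penk*, and 209 nuclei with none had 137 CPM. With 1 UMI of *Drd2* and *Adora2a* together, 75 nuclei had 193 CPM of *Penk*, and 1562 nuclei with none had 33.5 CPM. The 22 nuclei with *Drd1* UMIs as well as *Drd2* or *Adora2a* had 305 CPM of *Penk* and 372 CPM of *Tac1*. With 1 *Slc17a7* UMI, 49 nuclei had 422 CPM of *Penk*, and 15 nuclei with 2 had 269 CPM. The *Penk* level was thus lower outside each limit than inside it.

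The genes that chose the nuclei stood as follows over the 8 libraries, given as a description with no test. *Drd2* (chromosome 9, 49340627 to 49408177, GRCm38) ranged from 150 to 360 CPM in D2 nuclei, with a median of 250. *Adora2a* (chromosome 10, 75316877 to 75334784) ranged from 146 to 334 CPM, with a median of 195. In 5548 glutamatergic nuclei (at least 5 *Slc17a7* UMIs), which should lack both, *Drd2* did not exceed 1.75 CPM and *Adora2a* 1.90 CPM in any library. *Pde10a* ranged from 1388 to 2789 CPM in D2 nuclei, with a median of 1980, and from 1793 to 2405 in D1 nuclei, with a median of 2126. *Rgs9* ranged from 278 to 674 CPM in D2 nuclei, with a median of 397, and from 361 to 659 in D1 nuclei, with a median of 461.

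*Penk*, *Gpr6* and *Tac1* were not used by the rule and separated the pools of D2 and D1 nuclei in every library. Promoters of genes at both ends of that comparison are shown here, because cyclic AMP acts on transcription through the cyclic AMP response element (CRE), with letters TGACGTCA. RefSeq entries on GRCm38.p6 matched 3 of 5 genes looked up (*Gpr6*, *Drd2* and *Tac1*, but not *Penk* or *Adora2a*). The window of *Drd2*, which the gate used, is not shown or described here, so the windows below are single examples. The 250 bases before the start of *Gpr6*, at chr10:41072291-41072540 on the minus strand, and of *Tac1*, at chr6:7554811-7555060 on the plus strand, read 5′ to 3′ as follows, with the CRE of *Gpr6* in capitals and, for *Tac1*, the letters that read TGACG on the other strand.
Gpr6: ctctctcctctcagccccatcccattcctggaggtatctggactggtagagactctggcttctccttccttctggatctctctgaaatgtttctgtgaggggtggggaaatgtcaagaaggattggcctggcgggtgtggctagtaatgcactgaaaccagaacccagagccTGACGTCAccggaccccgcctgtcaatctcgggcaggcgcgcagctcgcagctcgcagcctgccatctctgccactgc
Tac1: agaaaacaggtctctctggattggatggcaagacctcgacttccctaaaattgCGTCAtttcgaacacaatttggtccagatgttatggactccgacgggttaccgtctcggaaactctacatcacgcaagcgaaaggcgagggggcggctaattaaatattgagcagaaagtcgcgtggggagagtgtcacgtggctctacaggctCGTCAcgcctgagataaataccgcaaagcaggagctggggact
The *Gpr6* window held 1 CRE, which began 78 bases before the start, and this CRE contains the shorter letters TGACG on both strands. The *Tac1* window held no CRE, and TGACG on either strand at 197 and at 43 bases before the start. Of 32536 promoter windows of the same length 1.56% held a CRE and 17.9% held TGACG on either strand. A match is a description of letters only, and binding was not measured.

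In D2 against D1 nuclei of the same mice, 231 of 6304 genes tested (3.66%) differed at an adjusted p of 0.05 (Benjamini-Hochberg) by the quasi-likelihood test of edgeR, fitted with the library as a block. Of these, 98 (1.55%) were higher and 133 (2.11%) lower in D2 nuclei. The 6 genes used by the gates were left out of this count. The median log2 fold change of all genes tested was 0.01, and 841 genes (13.3%) had an unadjusted p under 0.05. With the nuclei that had striatal genes only, 318 of 5336 genes (5.96%) passed, 167 higher and 151 lower. Of the 231 genes, 166 passed in both settings, which is 71.9% of the first list and 52.2% of the second, and all 166 had the same direction. DESeq2 called 133 genes, of which 114 were among the 231. A level over pooled nuclei does not show whether fewer nuclei carried a transcript or each carried less of it.

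The genes highest in D2 nuclei were a receptor and a peptide of the indirect pathway. *Gpr6*, a receptor that raises cyclic AMP without a known need for a ligand, stood at 29.1 to 112 CPM in D2 nuclei (median 61.1, 173 UMIs) and at 0 to 4.58 CPM in D1 nuclei (median 1.15, 8 UMIs). The ranges did not overlap. The log2 fold change was 4.99 (standard error 0.33, edgeR adjusted p = 4.52e-12). *Gpr6* lies on chromosome 10 from 41069977 to 41072285. It had 0 UMIs in the 55 nuclei without striatal genes and was higher by 5.35 (standard error 0.34) without them.

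*Penk*, on chromosome 4 from 4133531 to 4138819, stood at 347 to 927 CPM in D2 nuclei (median 491) and at 52.5 to 106 CPM in D1 nuclei (median 80.8). The lowest D2 library was above the highest D1 library. The log2 fold change was 2.75 (standard error 0.13, edgeR adjusted p = 4.47e-15), and 3.02 (standard error 0.12) with striatal nuclei only. In glutamatergic nuclei *Penk* stood at 2.21 to 6.03 CPM. After each nucleus was thinned to 3000 UMIs, *Penk* was detected in 64.4% of D2 nuclei (95% Wilson interval 59.0 to 69.5) and in 15.0% of D1 nuclei (12.2 to 18.2). In glutamatergic nuclei the thinned share was 1.5%, and the part of free RNA in any of these shares was not tested. The unthinned shares were 74.4%, 21.5% and 4.20%, at median depths of 6563.5, 6795.5 and 11479 UMIs, and thinning left out 1, 9 and 4 nuclei with fewer UMIs. These intervals cover counting error only.

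*Oprd1*, the delta opioid receptor at which enkephalin acts, was also higher in D2 nuclei. It stood at 49.8 to 77.1 CPM (median 61.9) in D2 nuclei and 2.96 to 32.1 CPM (median 10.6) in D1 nuclei, with no overlap. The log2 fold change was 2.34 (standard error 0.27, edgeR adjusted p = 1.3e-06), and 3.41 (standard error 0.32) with striatal nuclei only. *Adk*, adenosine kinase, which clears adenosine, stood at 183 to 367 CPM in D2 and 52.7 to 96.2 CPM in D1 nuclei, again without overlap (log2 fold change 1.86, standard error 0.13, edgeR adjusted p = 2.88e-11). *Grik3*, a kainate receptor subunit, stood at 144 to 329 CPM in D2 and 57.8 to 125 CPM in D1 nuclei (1.68, standard error 0.20, edgeR adjusted p = 0.000222). With striatal nuclei only its log2 fold change was 2.56 (standard error 0.17). The 55 nuclei without striatal genes also carried both receptor genes. *Grik3* stood there at 306 CPM against 222 CPM in the 261, and *Oprd1* at 55.9 against 64.1 CPM. *Zfhx3*, a homeobox transcription factor (1.62), and *Unc5d*, a netrin receptor (1.61), were higher in 8 of 8 libraries.

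Several of the genes higher in D2 nuclei moved with the nuclei that lacked striatal genes. *Elfn1* stood at 8.06 to 144 CPM in D2 nuclei (log2 fold change 2.05, standard error 0.41, edgeR adjusted p = 0.0198) and at 0 to 30.2 CPM in the 261 D2 nuclei with striatal genes, where its counts were too low to be tested. *Lypd6b* stood at 0 to 107 CPM in D2 nuclei (1.33, standard error 0.30, edgeR adjusted p = 0.0178), was higher than in D1 nuclei in 6 of 8 libraries and had 16 of its 137 UMIs in the 261 nuclei. *Npas3*, a transcription factor, had a log2 fold change of 1.54 with all nuclei and 1.14 without those that lacked striatal genes, and 302 of its 1153 UMIs were in the 261 nuclei. *Col19a1* (1.32, higher in 7 of 8 libraries) fell to 0.99 in that setting. *Glra3*, a glycine receptor subunit (1.33, higher in 8 of 8 libraries), was not tested there and had 65 of its 112 UMIs in the 261 nuclei.

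The genes lowest in D2 nuclei included transcription factors and peptides of the direct pathway. *Ebf1*, a transcription factor of direct-pathway neurons, had 6 UMIs in D2 nuclei, in 3 of 8 libraries at most 6.22 CPM, and 390 UMIs in D1 nuclei at 46.6 to 161 CPM. The fitted log2 fold change was -5.09 (standard error 0.32, edgeR adjusted p = 1.06e-12). *Tac1* stood at 22.2 to 204 CPM in D2 nuclei (median 88.7) and 477 to 848 CPM in D1 nuclei (median 645), and the ranges did not overlap. Its log2 fold change was -2.81 (standard error 0.30, edgeR adjusted p = 0.00164). *Pdyn* stood at 0 to 56.1 CPM in D2 nuclei and 43.6 to 78.5 CPM in D1 nuclei, so that the groups overlapped (-1.95, standard error 0.42, edgeR adjusted p = 0.0222). Of its 37 UMIs in D2 nuclei 28 were in the 55 nuclei without striatal genes, and without them the log2 fold change was -3.56 (standard error 0.34).

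*Foxp2*, a forkhead transcription factor, stood at 43.6 to 215 CPM in D2 nuclei (median 119) and 729 to 1177 CPM in D1 nuclei (median 844), a log2 fold change of -2.89 (standard error 0.27, edgeR adjusted p = 0.000658). *Mdk*, the growth factor midkine (-3.21), and *Gfra1*, a receptor for glial cell line-derived neurotrophic factor (-2.78), had 14 and 32 UMIs in D2 nuclei and 245 and 390 in D1 nuclei. *Col11a1* (-2.20), *Rbm20* (-2.14), *Atp6ap1l* (-2.12), *St3gal1* (-1.99), *Mdga1* (-1.94) and *Ust* (-1.93) completed the genes with the largest falls. All 12 were lower in D2 than in D1 nuclei in 8 of 8 libraries.

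**Figure D2:**
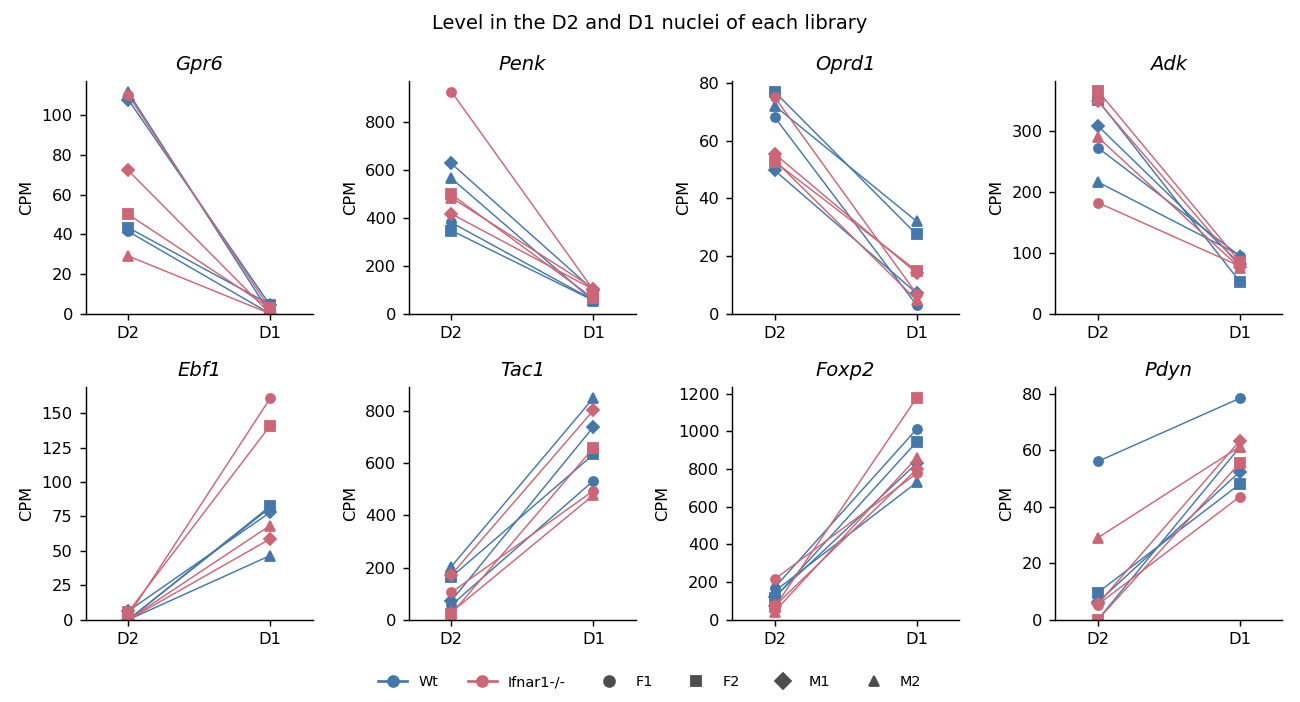
Each line joins the level (CPM, y axis from 0) of a gene in the D2 and D1 nuclei of 1 library, coloured by genotype with a marker for each mouse. *Gpr6*, *Penk*, *Oprd1* and *Adk* are higher in D2 nuclei and *Ebf1*, *Tac1*, *Foxp2* and *Pdyn* higher in D1 nuclei in 8 of 8 libraries.

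**Figure D3:**
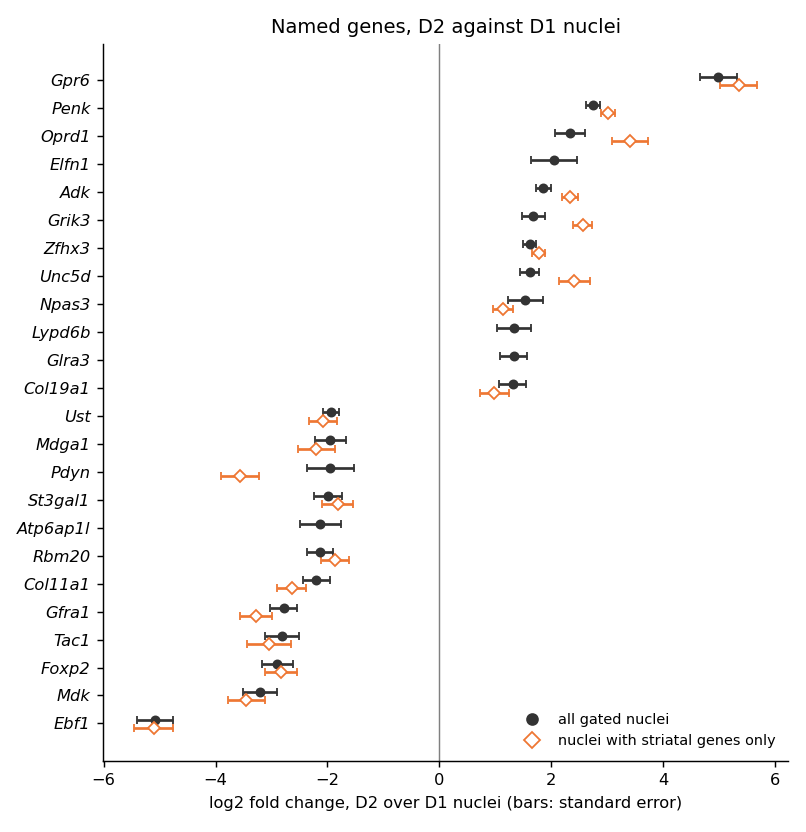
Log2 fold change of D2 over D1 nuclei (x axis) with standard errors for the 24 named genes, with all gated nuclei (filled circles) and with nuclei that had striatal genes only (open diamonds). The direction is the same in both settings for every gene tested in both, and 4 genes have no diamond because they were not tested there.

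Of 17 tested genes common to both kinds of projection neuron 1 was higher and 1 lower in D2 nuclei. *Foxp1*, a forkhead transcription factor, was higher (0.40, standard error 0.10, edgeR adjusted p = 0.0187) and *Arpp21*, a phosphoprotein regulated by cyclic AMP, lower (-0.40, standard error 0.10, edgeR adjusted p = 0.0169), with a list median of 0.01. With striatal nuclei only 4 were higher and 0 lower and the list median was 0.18. *Meis2* was then higher by 0.46 and *Pde1b* by 0.43, and *Arpp21* no longer passed (-0.21). That setting selects nuclei on 8 of these genes, *Foxp1*, *Meis2* and *Pde1b* among them, in D2 and D1 nuclei alike.

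Among 34 tested genes of dopamine, adenosine and cyclic AMP signalling, 2 were higher and 3 lower in D2 nuclei (list median 0.04). Besides *Gpr6*, *Gnas*, the alpha subunit of the stimulatory G protein, was higher. It stood at 99.4 to 400.6 CPM in D2 nuclei and at 36.7 to 188 CPM in D1 nuclei, with overlap between the groups and a higher value in D2 nuclei in 8 of 8 libraries (0.80, standard error 0.13, edgeR adjusted p = 0.00024). *Drd3*, the D3 dopamine receptor, was lower at 5.55 to 34.9 CPM against 43.7 to 93.9 CPM in D1 nuclei, with no overlap (-1.56, standard error 0.23, edgeR adjusted p = 5.84e-05). *Arpp21* and the kinase gene *Rps6ka5* (-0.51) were also lower, and neither passed with striatal nuclei only, where the calls were 4 higher and 1 lower. Added there were *Gnb5*, a G protein beta subunit (0.51), and *Arpp19*, a phosphoprotein regulated by cyclic AMP (0.77). *Adcy5*, the main striatal adenylyl cyclase, stood at 267 to 586 CPM in D2 and 300.2 to 515 CPM in D1 nuclei and did not pass.

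Of 12 tested phosphodiesterases 0 were higher and 2 lower, *Pde1a* (-0.53) and *Pde8b* (-0.43), with a list median of 0.08. With striatal nuclei only 2 were higher, *Pde4b* (0.45) and *Pde1b* (0.43), which is among the selecting genes, and 3 lower, *Pde11a* (-1.26) being added. Of 18 tested neuropeptide and opioid genes *Penk* and *Oprd1* were higher and *Tac1* and *Pdyn* lower (median -0.14), joined with striatal nuclei only by *Pam*, a peptide-amidating enzyme (-0.39). Of 26 tested glutamate receptor genes 4 were higher and 0 lower (median 0.06). These were *Grik3*, the AMPA receptor subunit *Gria3* (0.35), the metabotropic receptor *Grm5* (0.33) and the kainate receptor auxiliary subunit *Neto2* (0.44), which was higher in 5 of 8 libraries. *Grm5* stood at 2543 to 3625 CPM in D2 and 1846 to 2754 CPM in D1 nuclei. In striatal nuclei alone 6 were higher, with *Grm3* (0.42), *Neto1* (0.37) and *Cacng4* (0.55) added and *Neto2* lost, and 1 lower, *Grin3a* (-1.23).

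Of 33 tested ion channel genes 0 were higher and 3 lower, *Kcnj3* (-0.56), *Cacna2d3* (-0.39) and *Ryr1* (-0.84), with a list median of 0.03. In striatal nuclei alone 4 of 31 were higher, *Kcnd3* (0.51), *Scn4b* (0.61), *Cacna1e* (0.45) and *Itpr1* (0.33), and 1 lower, *Cacna2d3* (-0.30), with a list median of 0.13. The calls over all genes moved the same way, from 98 higher and 133 lower to 167 higher and 151 lower. Of 21 genes of GABA synthesis, release and reception 0 passed in either direction (median 0.00), with 3 at an unadjusted p under 0.05. *Gabra4*, a GABA-A receptor subunit, was higher (0.44) and *Gabbr2*, a GABA-B receptor subunit, lower (-0.72) with striatal nuclei only. *Gad1*, a GABA-synthesizing enzyme, stood at 72.3 to 155 CPM in D2 and 73.3 to 183 CPM in D1 nuclei. Of 5 tested cholinergic genes the muscarinic receptor *Chrm3* was higher (0.86, edgeR adjusted p = 0.0425), and it did not pass with striatal nuclei only (0.67, edgeR adjusted p = 0.493). Of 9 tested endocannabinoid genes *Plcb1* was lower (-0.37).

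Lists of striatal compartments differed by single genes. Of 5 tested striosome genes, which with striatal nuclei only also had *Sema5b* lower (-1.65), *Tshz1* was lower in D2 nuclei, at 24.2 to 57.8 CPM against 63.7 to 148 CPM in D1 nuclei without overlap (-1.48, standard error 0.18, edgeR adjusted p = 2.14e-06), and of 3 tested matrix genes *Epha4*, an ephrin receptor, was higher (0.43, edgeR adjusted p = 0.00925). Of 5 genes of the dorsal and ventral striatum *Wfs1* was lower (-0.69), and of 2 tested genes of eccentric projection neurons *Otof* was lower (-0.97). Of 3 activity-regulated, 2 interferon-response, 5 interferon-receptor signalling, 10 Parkinson's disease, 11 mitochondrially encoded, 38 nuclear respiratory chain and 19 chromosome 16 genes tested 0 passed in edgeR, with 4 of those on chromosome 16 at an unadjusted p under 0.05. Of 5 tested genes called between genotypes in other cells, *Esrrg* was lower in D2 nuclei (-0.33). Of the list members named here *Neto2*, *Kcnj3*, *Ryr1* and *Wfs1* also did not pass in edgeR with striatal nuclei only (adjusted p = 0.0811, 0.0837, 0.0523 and 0.212), and each kept its direction.

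The share of D2 nuclei among kept nuclei did not separate the genotypes. It was 0.694%, 0.402%, 0.888% and 0.313% in Wt F1, F2, M1 and M2 and 0.821%, 0.774%, 0.297% and 0.340% in *Ifnar1*-/- F1, F2, M1 and M2, with 20 to 85 nuclei behind each value. The groups overlapped, at 0.574% ± 0.265 in Wt and 0.558% ± 0.278 in *Ifnar1*-/- (SD, n = 4, exact permutation test, two-sided, p = 0.914). With 4 mice against 4 the smallest p this test can give is 0.0286. The means were 0.548% and 0.797% in Wt and *Ifnar1*-/- females and 0.600% and 0.318% in males, with 2 mice each and no test. How much striatum each dissection took is not given in the sources used here, and it cannot be told apart from the number of D2 neurons.

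The share of D2 nuclei was also taken over D1 and D2 nuclei alone. It was 36.2%, 32.0%, 42.7% and 30.8% in Wt F1, F2, M1 and M2 and 45.8%, 31.2%, 26.5% and 29.3% in *Ifnar1*-/- F1, F2, M1 and M2. The means were 35.4% ± 5.39 in Wt and 33.2% ± 8.62 in *Ifnar1*-/- (SD, n = 4, exact permutation test, two-sided, p = 0.657). The highest values were those of Wt M1 and *Ifnar1*-/- F1, the libraries with the most D2 nuclei (85 and 71). These libraries also had the lowest median UMIs per D2 nucleus, at 5260 and 4587. The medians of the others were 6563.5 to 9920. The gate used raw UMIs, and whether depth per nucleus moved the shares was not tested.

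**Figure D4:**
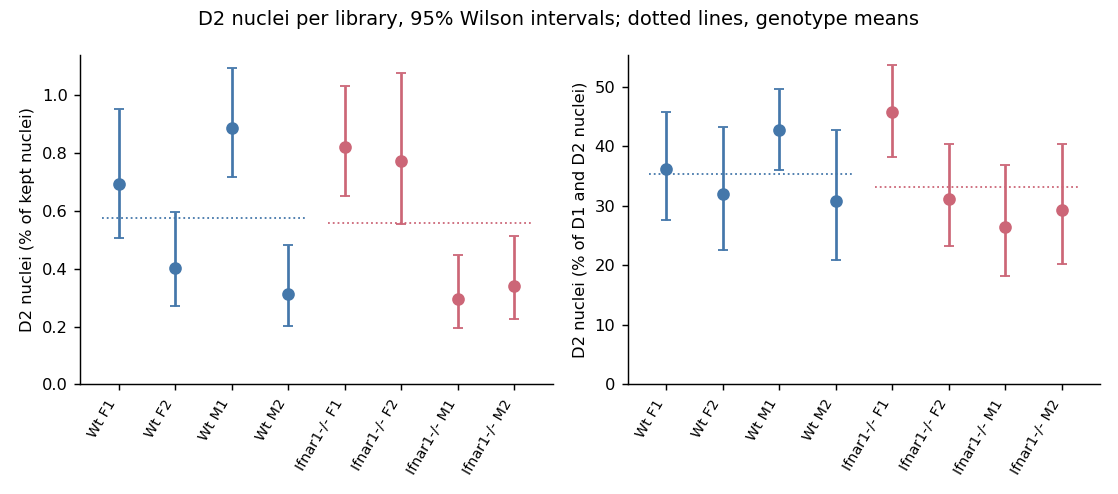
D2 nuclei in each library (x axis) as a percentage of kept nuclei (left) and of D1 and D2 nuclei (right), with 95% Wilson intervals for counting error and dotted lines at the genotype means. The libraries of the 2 genotypes overlap in both panels, with means of 0.574% and 0.558% on the left and 35.4% and 33.2% on the right.

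Within D2 nuclei 0 of 4940 genes tested (0%) passed an adjusted p of 0.05 between genotypes in edgeR, and 0 in DESeq2. At an unadjusted p under 0.05 edgeR counted 115 genes (2.33%) and DESeq2 124 of 18961 (0.654%). In counts simulated from these libraries the same edgeR test recovered 97.7% of 4-fold and 44.2% of 2-fold changes. The simulation gave every gene the same spread between libraries and changed only genes above a set number of UMIs. Even there 2-fold changes were often not called. Recovery at the spread of the measured counts was not tested, so these shares do not give what would have been called here. The 2 genotypes did not overlap in CPM for 81 genes (1.64%), 25 higher and 56 lower in *Ifnar1*-/-. With striatal nuclei only 0 of 3392 genes passed, with 120 at an unadjusted p under 0.05.

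*Ifnar1* (chromosome 16, 91485238 to 91507441), the targeted gene, was detected in D2 nuclei of all 8 libraries, with 20 UMIs in Wt and 15 in *Ifnar1*-/-. It stood at 17.1, 24.1, 12.4 and 13.1 CPM in Wt F1, F2, M1 and M2 and at 10.7, 19.5, 11.1 and 9.68 CPM in *Ifnar1*-/- F1, F2, M1 and M2. The groups overlapped, and the gene was too low to be tested. The counts are summed over the whole gene and cannot tell a transcript with the deleted part from one without it, so they do not check the genotype labels. *Ifnar2*, the other receptor subunit, had 16 UMIs in Wt and 12 in *Ifnar1*-/-.

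Genes that respond to interferon were close to the limit of detection in D2 nuclei of both genotypes. Of 57 listed genes in the files 22 had 0 UMIs, and the sum of the list was 251 to 309 CPM in Wt and 239 to 272 CPM in *Ifnar1*-/-. *Isg15*, a ubiquitin-like protein induced by interferon, had 2 UMIs in Wt and 0 in *Ifnar1*-/-, and *Ifit1* had 0 and 1. *Irf9*, a transcription factor downstream of the receptor, had 8 and 8. *B2m*, the light chain of MHC class I, had 6 and 11. The 2 genes of the list that could be tested did not pass, and differences in the others were not detectable at this depth.

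Genes that define D2 neurons did not pass between genotypes. *Penk* stood at 381, 347, 627 and 565 CPM in Wt F1, F2, M1 and M2 and at 927, 498, 416 and 484 CPM in *Ifnar1*-/- F1, F2, M1 and M2, which overlapped (log2 fold change of *Ifnar1*-/- over Wt 0.35, standard error 0.30, unadjusted p = 0.252 in edgeR). The library with the highest *Penk*, *Ifnar1*-/- F1, was also the one with 0 nuclei that lacked striatal genes. With striatal nuclei only it stood at 632, 543, 698 and 958 CPM in Wt and 927, 747, 560 and 674 CPM in *Ifnar1*-/- (0.10, standard error 0.21). *Gpr6* stood at 41.5, 43.4, 108 and 112 CPM in Wt and at 110, 50.1, 72.2 and 29.1 CPM in *Ifnar1*-/-, with no separation (-0.09, standard error 0.43). *Oprd1* (-0.07, standard error 0.29), *Adk* (0.05, standard error 0.23) and *Grik3* (0.14, standard error 0.27) also did not pass.

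The lists of signalling genes were likewise without a call. Of 32 tested genes of dopamine, adenosine and cyclic AMP signalling 19 were higher and 13 lower in *Ifnar1*-/-, with 0 at an unadjusted p under 0.05 and a median of 0.01, against 0.01 over all genes tested. *Ppp1r1b* stood at 29.3, 43.4, 70.5 and 39.4 CPM in Wt F1, F2, M1 and M2 and 51.0, 22.2, 22.2 and 33.9 CPM in *Ifnar1*-/- F1, F2, M1 and M2 (-0.44, standard error 0.40). The medians were 0.09 over 17 genes common to projection neurons, 0.08 over 11 phosphodiesterases, 0.22 over 15 neuropeptide and opioid genes, 0.10 over 9 endocannabinoid genes and 0.07 over 21 GABA genes. They were 0.02 over 26 glutamate receptor genes, 0.12 over 30 ion channel genes, -0.08 over 4 cholinergic genes, 0.03 over 10 Parkinson's disease genes and -0.05 over 26 nuclear respiratory chain genes. Of 16 tested genes near *Ifnar1* on chromosome 16, 5 were higher and 11 lower (median -0.14). None of these genes passed in edgeR. In striatal nuclei alone 0 passed again, and some balances turned. Of 24 genes of dopamine, adenosine and cyclic AMP signalling 8 were higher and 16 lower (median -0.10). Of 16 genes common to projection neurons 4 were higher and 12 lower (median -0.07), against 13 and 4 with all nuclei. That setting selects nuclei on 8 genes of this list, so this turn cannot be told apart from the selection. The median was -0.08 over 8 Parkinson's disease genes, 0.07 over 11 nuclear respiratory chain genes and 0.28 over 2 cholinergic genes.

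Single members of the lists with an unadjusted p under 0.05 are given as values. *Oprm1*, the mu opioid receptor, stood at 95.1, 91.5, 80.9 and 59.1 CPM in Wt F1, F2, M1 and M2 and 102, 186, 106 and 174 CPM in *Ifnar1*-/- F1, F2, M1 and M2, and the genotypes did not overlap (0.80, standard error 0.26, unadjusted p = 0.00702, adjusted p = 1 in edgeR). With striatal nuclei only they overlapped (0.73, standard error 0.38). *Chrm2*, a muscarinic receptor (1.26), and *Grm8*, a metabotropic glutamate receptor (0.56), had higher and *Ache*, acetylcholinesterase (-1.08), and *Kcnip2*, a potassium channel subunit (-0.48), lower values in *Ifnar1*-/-. With striatal nuclei only 2 cholinergic genes were tested, *Chrm3* at 0.79 and another at -0.22. *Chrm2* and *Ache* were thus not both tested there, and their values with all nuclei could not both be compared. *Sdhb* (-1.02) and *Ndufb3* (-0.86), of respiratory complexes II and I, were the 2 nuclear respiratory chain genes at that threshold.

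Mitochondrially encoded transcripts, which in nuclei mark carried-over cytoplasm, had a median of 0.42 over 10 tested genes, 9 with higher and 1 with a lower value in *Ifnar1*-/-. Their sum was 1895 to 7665 CPM in Wt and 1841 to 10124 CPM in *Ifnar1*-/-, so that the genotypes overlapped widely. The percentage of mitochondrially encoded UMIs in D2 nuclei was 0.430 ± 0.248 in Wt and 0.538 ± 0.346 in *Ifnar1*-/- (SD, n = 4, exact permutation test, two-sided, p = 0.629).

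The 3 genes with the smallest p-values between genotypes in D2 nuclei had adjusted p = 1 in edgeR, and are named after their values were seen, as are *Eef1a1*, *Gpc5* and *Mast4*. *Gon4l*, a nuclear protein gene on chromosome 3 from 88835231 to 88910103, stood at 97.6, 101, 89.2 and 112 CPM in Wt F1, F2, M1 and M2 and 193, 153, 178 and 160 CPM in *Ifnar1*-/- F1, F2, M1 and M2. All *Ifnar1*-/- libraries were above all Wt libraries (0.84, standard error 0.21, unadjusted p = 0.00103). *Gm43713* lies on the opposite strand inside *Gon4l*, between 88845025 and 88900001, and stood at 105, 125, 47.7 and 105 CPM in Wt and 172, 292, 189 and 184 CPM in *Ifnar1*-/- (1.22, standard error 0.29, unadjusted p = 0.000834). The sources used here do not state whether strand was used in counting, and whether UMIs of one of these overlapping genes were counted for the other was not tested. The lincRNA *Gm26848*, on chromosome 17 from 6314199 to 6493180, stood at 1205, 1614, 1303 and 1438 CPM in Wt and 2133, 1980, 2232 and 2053 CPM in *Ifnar1*-/-, also without overlap (0.63, standard error 0.18, unadjusted p = 0.00288).

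In D1 nuclei of the same mice these genes had similar values, and 1 of 6659 genes tested (0.015%) passed in edgeR. This was *Gm43713*, at 91.8, 82.5, 41.1 and 64.1 CPM in Wt F1, F2, M1 and M2 and 223, 191, 244 and 186 CPM in *Ifnar1*-/- F1, F2, M1 and M2 (1.61, standard error 0.23, edgeR adjusted p = 0.0333). *Gon4l* had a log2 fold change of 1.07 (standard error 0.18, edgeR adjusted p = 0.108) and *Gm26848* of 0.71 (standard error 0.13, edgeR adjusted p = 0.162). The tests of the difference between D2 and D1 nuclei gave -0.37 (standard error 0.26) for *Gm43713*, -0.23 (standard error 0.24) for *Gon4l* and -0.08 (standard error 0.16) for *Gm26848*, with an adjusted p of 1 for each in edgeR.

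*Eef1a1*, a translation elongation factor whose reads can be shared with pseudogenes and is therefore uncertain, stood at 127, 145, 237 and 256 CPM in Wt F1, F2, M1 and M2 and 26.9, 38.9, 106 and 145 CPM in *Ifnar1*-/- F1, F2, M1 and M2. *Ifnar1*-/- M2 lay within the range of Wt (-1.35, standard error 0.44, unadjusted p = 0.0108 in edgeR). In D1 nuclei the value was -1.09 (standard error 0.35). *Gpc5*, a glypican, stood at 22.0, 48.2, 51.9 and 26.3 CPM in Wt and 67.2, 142, 450 and 116 CPM in *Ifnar1*-/-, without overlap (2.27, standard error 0.59, unadjusted p = 0.00379 in edgeR), and at 47.0 to 364 CPM in D1 nuclei of both genotypes.

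**Figure D5:**
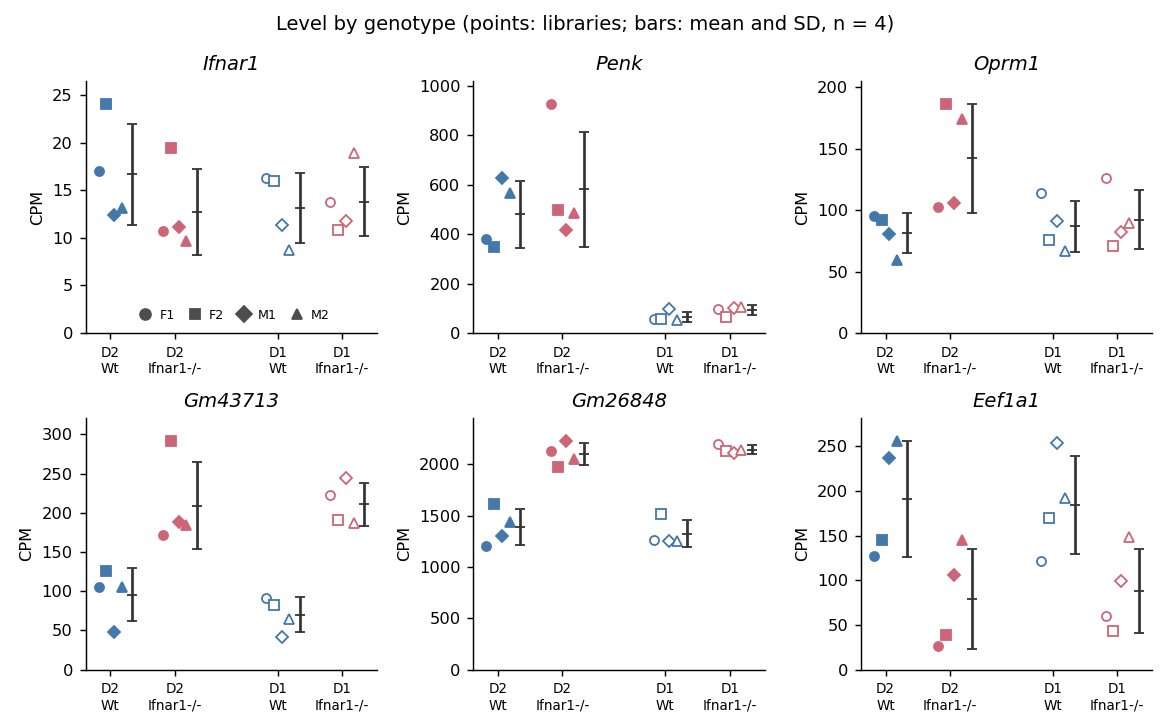
Level (CPM, y axes from 0) of 6 genes in D2 nuclei (filled) and D1 nuclei (open) of each Wt (blue) and *Ifnar1*-/- (red) library, with the mean and SD of 4 mice beside the points. *Ifnar1* and *Penk* overlap between genotypes in D2 nuclei, while *Oprm1*, *Gm43713* and *Gm26848* do not, with an adjusted p of 1 in edgeR for each of the last 3 in D2 nuclei.

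The genotype effect in D2 nuclei minus that in D1 nuclei did not pass for any of 7535 genes (0%) in edgeR with the library as a block. DESeq2 also called 0 genes. Unadjusted p-values were under 0.05 for 278 genes in edgeR and 78 in DESeq2. In counts simulated with the same limits this test recovered 63.0% of 4-fold and 6.74% of 2-fold differences, and recovery at the measured spread was not tested. The smallest p was that of *Mast4*, a kinase gene, with a difference of 1.19 (standard error 0.24, edgeR adjusted p = 0.149). It stood at 129, 198, 93.4 and 105 CPM in Wt F1, F2, M1 and M2 and 148, 228, 355 and 165 CPM in *Ifnar1*-/- F1, F2, M1 and M2 in D2 nuclei, so that the genotypes overlapped.

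With striatal nuclei only 6 of 6542 genes (0.0917%) passed the same test, and all 6 had a more positive genotype effect in D2 than in D1 nuclei. *Meis1*, a homeobox gene, stood at 54.4, 37.7, 46.5 and 44.6 CPM in Wt F1, F2, M1 and M2 and 56.4, 99.0, 269 and 129 CPM in *Ifnar1*-/- F1, F2, M1 and M2 in D2 nuclei with striatal genes, while in D1 nuclei the means were 66.1 and 37.7 CPM (difference 2.09, standard error 0.41, edgeR adjusted p = 0.0138). *Grm8* stood at 92.1, 128, 126 and 111 CPM in Wt and 185, 185, 177 and 245 CPM in *Ifnar1*-/- in D2 nuclei, against means of 197 and 135 CPM in D1 nuclei (1.33, standard error 0.28, edgeR adjusted p = 0.0191). In both, all *Ifnar1*-/- libraries were above all Wt libraries in D2 nuclei, for *Meis1* by 56.4 against 54.4 CPM at the closest. The D2 nuclei with striatal genes held 132532 UMIs in Wt F2 and 89765 in Wt M2, so that *Meis1* rested on few UMIs there. *Etl4* had a difference of 1.12 and *Luzp2* of 1.83.

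The other 2 of the 6 genes also rested on few UMIs. *Elavl2*, an RNA-binding protein gene, had 9 UMIs in Wt and 52 in *Ifnar1*-/- D2 nuclei with striatal genes (3.28, standard error 0.60), and the long RNA *Rmst* had 13 and 39 (3.37, standard error 0.65). *Elavl2* was also among the genes of the nuclei that the setting removed, at 670 CPM in the 55 nuclei and 34.6 CPM in the 261. With all gated D2 nuclei its genotype values were 282 ± 161 CPM in Wt and 194 ± 136 CPM in *Ifnar1*-/- (SD, n = 4), and its difference was -0.08 (standard error 0.63).

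Markers of other cells in the summed D2 nuclei were as follows. Over 10 interneuron genes the sum was 569 to 2470 CPM in Wt and 336 to 2728 CPM in *Ifnar1*-/-, and 83.8 to 430.1 and 162 to 407 CPM with striatal nuclei only. Over 6 cortical glutamatergic genes it was 92.0 to 187 CPM in Wt and 125 to 231 CPM in *Ifnar1*-/-, over 6 oligodendrocyte genes 85.4 to 448 and 83.4 to 379 CPM, and over 5 microglial genes 46.0 to 139.7 and 100.1 to 164 CPM. Over 5 astrocyte genes it was 36.6 to 68.5 and 33.4 to 102 CPM. Of 4 interneuron genes tested between D2 and D1 nuclei *Lamp5* was lower in D2 nuclei (-0.87, edgeR adjusted p = 0.0106), as was *Adarb2* with striatal nuclei only (-3.56), and of the tested genes of the other cell types 0 passed, with 1 at an unadjusted p under 0.05. Of the defining genes *Pdgfra* of oligodendrocyte precursors and *Cldn5* and *Vtn* of vessels were at 0 in D2 nuclei. The part of these transcripts in the comparisons was not tested, beyond the setting without nuclei that lacked striatal genes.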

How the data were processed

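Nuclei were isolated from frozen cortex of 8 mice and sequenced with a 10x 3′ kit, 1 library per mouse. The authors aligned reads with Cell Ranger to mm10 (GRCm38), counting unspliced transcripts, and deposited the raw UMI counts per gene and barcode used here. The submitters' processing notes also name Seurat 3.1.5. The authors' clusters were not used.

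The quality filters required between 200 and 6000 genes, over 1000 UMIs, and under 10% of UMIs from the mitochondrial genome (Python 3.11.15, scanpy 1.11.5, numpy 2.4.6, scipy 1.17.1). Doublets called by Scrublet were kept and left out in an alternative. Gated nuclei were summed per library, and the sums were tested in R 4.3.3 with edgeR 4.0.16 (TMM, filterByExpr, robust quasi-likelihood test, Benjamini-Hochberg threshold 0.05), with DESeq2 1.42.0 as an alternative. D2 against D1 nuclei and the difference of genotype effects were fitted with the library as a block. Genes of the gates were not tested. Shares were compared by exact permutation tests over mice. The scripts were tested on simulated data. The members and gene lists were chosen with earlier results of these data known. Other alternatives were another scaling, no filter on low counts, a stricter gate, sex as a term, leaving out each mouse and, added after the data were seen, nuclei with striatal genes only.

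Genes were named by rule. Between genotypes these were all genes past the threshold, and for D2 against D1 nuclei the 12 with the largest changes in each direction among those past it with at least 100 UMIs, without gate genes and unnamed gene models. For the difference of genotype effects at most 10 genes past the threshold were named, and members of the lists were named with their list. The p-values between genotypes measure the spread between mice. Those fitted with the library as a block measure the spread, across mice, of the difference between D2 and D1 nuclei of the same mouse. The depth of 152253 to 481932 UMIs per library in D2 nuclei limits the precision, as does the spread between mice.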

Additional observations from a re-analysis of the deposited data

Results flagged for a closer look

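In groups of 4 libraries 8 of 58 had 1 library further from the others than Dixon's 95% critical value allows, and chance alone flags about 1 group in 20. *Ifnar1*-/- F1 stood apart in D2 nuclei for *Penk*, at 927 CPM against 416 to 498 CPM in the other *Ifnar1*-/- mice, for *Oprd1*, at 75.2 against 52.8 to 55.5 CPM, and for *Foxp2*, at 215 against 43.6 to 72.2 CPM. This library had 0 nuclei that lacked striatal genes and the lowest median UMIs per D2 nucleus, at 4587. *Ifnar1*-/- M2 stood apart for *Col19a1*, at 266 against 67.2 to 97.3 CPM, for *Mdk*, at 9.68 against 5.37 to 5.56 CPM, and for *Rbm20*, at 19.4 against 10.7 to 11.1 CPM. Among Wt mice, M1 had 6.22 CPM of *Ebf1*, which was 0 in the others, and F2 had 38.5 CPM of *Mdga1* against 6.22 to 9.76 CPM. Over all D2 nuclei *Mdk* had 14 UMIs, *Rbm20* 33, *Ebf1* 6 and *Mdga1* 28, so that the flags of these genes rested on few UMIs per library. The cause was not tested for any of the flags.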

How the results depend on the processing

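Of 335 values of the 24 genes named between D2 and D1 nuclei under the alternatives, 313 kept their direction and call, 22 kept the direction without passing and 0 reversed. The 231 calls became 133 with DESeq2, 364 with no filter on low counts, 77 with no library block and 170 to 218 on leaving out 1 mouse. The calls lost were those of *Npas3* (without each mouse but *Ifnar1*-/- M1, with the stricter gate, with no filter and with no library block), *Lypd6b* (DESeq2, without Wt F1, Wt M1 or *Ifnar1*-/- F2, and no library block), *Pdyn* (without Wt F2, Wt M1 or *Ifnar1*-/- F1), *Elfn1* (without Wt F2 and no library block), and *Glra3* and *Col19a1* (no library block). The 0 genotype calls in D2 nuclei became 5 with no filter (*Gpc5*, *Gm14661*, *Eef1a1*, *Gm43713* and *Gm4128*) and 1 with the replicate block (*Gpc5*), and were 0 on leaving out each mouse. Same-named mice did not pair: the correlation of their deviations was 0.0269 for F1, 0.194 for F2, 0.222 for M1 and 0.125 for M2, and 1 name, M1, correlated best with its own. With the replicate block the share of D2 nuclei had p = 1 and the D2 share of D1 and D2 nuclei p = 0.625 (exact permutation tests). The 0 calls for the difference of genotype effects became 7 with no filter, 1 without doublets (*Grm8*), 6 with striatal nuclei only and 0 to 3 on leaving out 1 mouse, 3 being without *Ifnar1*-/- F1. The 1 call in D1 nuclei became 3 with sex as a term. The difference in the share of D2 nuclei (*Ifnar1*-/- minus Wt, percentage points, -0.0162) was 0.0113 with striatal nuclei only and -0.104 to 0.0884 on leaving out 1 mouse, reversing without Wt F1 (0.0239), Wt M1 (0.0884), *Ifnar1*-/- M1 (0.0709) and *Ifnar1*-/- M2 (0.0563). The D2 share of D1 and D2 nuclei (-2.21) was -6.41 to 0.223, reversing without Wt M1 (0.223) and *Ifnar1*-/- M1 (0.0258). Single genotype values of the genes reversed for *Chrm3* (-0.10 to 0.19 on leaving out 1 mouse, reversed without Wt M1 and, at -0.09, without *Ifnar1*-/- M2), *Etl4* (-0.0807 to 0.50, reversed without *Ifnar1*-/- M2) and *Luzp2* (0.20 with the stricter gate and 0.90 with striatal nuclei only). The causes were not tested. Few D2 nuclei per mouse, 20 to 85, limit what genotype changes can be detected.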

Other observations

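The 22 nuclei with UMIs of *Drd1* and of *Drd2* or *Adora2a* belong in neither group. They stood at 305 CPM of *Penk* and 372 CPM of *Tac1*. The 1562 nuclei that met the limits on *Slc17a7*, *Pde10a* and *Rgs9* with none of the 3 receptors stood at 33.5 CPM of *Penk*.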
